A study of Mus musculus with 26 samples.

Results

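The lysine demethylase family is described here through the RNA 5-hydroxymethylcytosine (5hmC) peaks listed in 10 of its genes, Kdm1a, Kdm2a, Kdm2b, Kdm3a, Kdm3b, Kdm4a, Kdm4b, Kdm4c, Kdm5b and Kdm6a. A peak was assigned to a gene when its summit, the midpoint of the listed interval, lay within the span of the gene in the GENCODE M1 annotation of mm9. Of 56538 peaks in all, 90 were assigned in this way. Overlapping intervals of all libraries were merged, which placed these 90 peaks in 51 of 23367 regions.

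The lists come from hMeRIP-seq, in which fragmented total RNA is precipitated with an antibody to 5hmC and sequenced beside its input. The 13 immunoprecipitated (IP) libraries of mouse cells form 5 groups. There are 3 replicates each of wild-type embryonic stem cells (WT ESC), of stem cells of genotype Tet1-Tet2-Tet3-KO (TKO ESC) and of wild-type embryoid bodies (WT EB), which were grown for 4 days in medium lacking leukaemia inhibitory factor. There are 2 replicates each of stem cells with Flag, HA and Twin-Strep tags on the endogenous Tet2 (Tet2-KI ESC) and of stem cells whose tagged Tet2 lacks the RNA-binding domain (Tet2deltaRBD-KI ESC). The knock-in cells were made by CRISPR editing of mouse stem cells and picked as clones.

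Lysine demethylases remove methyl groups from the lysines of histone tails. Kdm1a, also called LSD1, is a flavin-dependent amine oxidase, whereas the Kdm2 to Kdm6 enzymes use a JmjC domain that needs iron and 2-oxoglutarate, as the Tet enzymes do that oxidise 5-methylcytosine. Kdm1a and Kdm5b act on H3K4, Kdm2a and Kdm2b mainly on H3K36, Kdm3a and Kdm3b on H3K9, the Kdm4 enzymes on H3K9 and H3K36, and Kdm6a, also called UTX, on H3K27. In embryonic stem cells several of them are known regulators of self-renewal and of the exit from pluripotency.

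Most regions had a peak in 1 library only, 32 of the 51 in the family (62.7%) and 54.2% of all regions in coding genes. No family region was listed in all 3 WT ESC, all 3 TKO ESC or all 3 WT EB libraries. Over coding genes, 12.9, 6.01 and 2.76% of the regions with a peak in these groups were. Family regions in every library of a group were found in the knock-in groups alone, which have 2 libraries instead of 3. In at least 2 libraries, WT ESC had 2 family regions, TKO ESC 0 and WT EB 1. Over coding genes, the share in both libraries was 26.1% for Tet2-KI ESC and 22.1% for Tet2deltaRBD-KI ESC. Both Tet2-KI ESC libraries shared 6 regions, in Kdm2a, Kdm3a, Kdm4a, Kdm4b, Kdm5b and Kdm6a, and both Tet2deltaRBD-KI ESC libraries shared 3, in Kdm2a, Kdm5b and Kdm6a, of which that in Kdm5b was the same. Windows of up to 200 bases around the median summit are shown for 1 recurrent region of each of these genes, because these regions carry the replicated peaks. They are given 5′ to 3′ on the gene strand from NCBIM37, the assembly behind mm9, with runs of at least 10 purines (A or G) in capitals. The Kdm6a window was limited to 184 bases, from the start codon onwards. A second Kdm4b window was added after its values were seen, since it holds the longest purine run among the family's windows.
Kdm3a intron, chr6:71565662-71565861, minus strand: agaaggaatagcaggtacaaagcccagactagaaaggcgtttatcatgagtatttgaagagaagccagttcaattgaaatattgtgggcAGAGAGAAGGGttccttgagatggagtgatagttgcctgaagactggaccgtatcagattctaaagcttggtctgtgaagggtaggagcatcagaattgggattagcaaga
Kdm5b intron, chr1:136457604-136457803, plus strand: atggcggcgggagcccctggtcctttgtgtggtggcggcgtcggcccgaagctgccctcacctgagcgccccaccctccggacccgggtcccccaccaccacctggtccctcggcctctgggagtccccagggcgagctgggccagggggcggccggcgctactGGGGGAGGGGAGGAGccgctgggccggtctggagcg
Kdm2a intron, chr19:4397394-4397593, minus strand: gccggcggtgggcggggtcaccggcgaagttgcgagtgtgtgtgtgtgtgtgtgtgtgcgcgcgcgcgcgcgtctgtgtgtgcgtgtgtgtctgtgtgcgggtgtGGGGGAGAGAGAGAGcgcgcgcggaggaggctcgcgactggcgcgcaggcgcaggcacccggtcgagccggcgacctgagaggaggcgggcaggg
Kdm6a coding sequence and intron, chrX:17740132-17740315, plus strand: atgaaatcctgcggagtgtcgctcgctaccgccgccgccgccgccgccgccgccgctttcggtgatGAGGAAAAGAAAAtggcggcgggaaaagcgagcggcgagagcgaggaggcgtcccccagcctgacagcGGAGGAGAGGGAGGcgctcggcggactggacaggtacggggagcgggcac
Kdm4a intron, chr4:117841735-117841934, minus strand: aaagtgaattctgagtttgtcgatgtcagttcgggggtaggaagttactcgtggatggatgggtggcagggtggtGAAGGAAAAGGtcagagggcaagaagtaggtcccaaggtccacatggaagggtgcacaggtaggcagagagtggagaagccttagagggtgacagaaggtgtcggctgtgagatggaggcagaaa
Kdm4b intron, chr17:56473264-56473463, plus strand: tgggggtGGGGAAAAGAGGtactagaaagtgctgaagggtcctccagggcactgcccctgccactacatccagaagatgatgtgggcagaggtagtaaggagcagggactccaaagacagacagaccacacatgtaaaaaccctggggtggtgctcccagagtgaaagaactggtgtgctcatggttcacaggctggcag
Kdm4b second intronic window, chr17:56497512-56497711, plus strand: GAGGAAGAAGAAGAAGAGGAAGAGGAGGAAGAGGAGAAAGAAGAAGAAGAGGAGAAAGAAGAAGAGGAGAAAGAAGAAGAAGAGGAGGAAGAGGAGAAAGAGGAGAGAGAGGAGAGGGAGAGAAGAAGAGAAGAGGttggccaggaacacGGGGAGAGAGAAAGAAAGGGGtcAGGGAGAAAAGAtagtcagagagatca

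**Figure D1:**
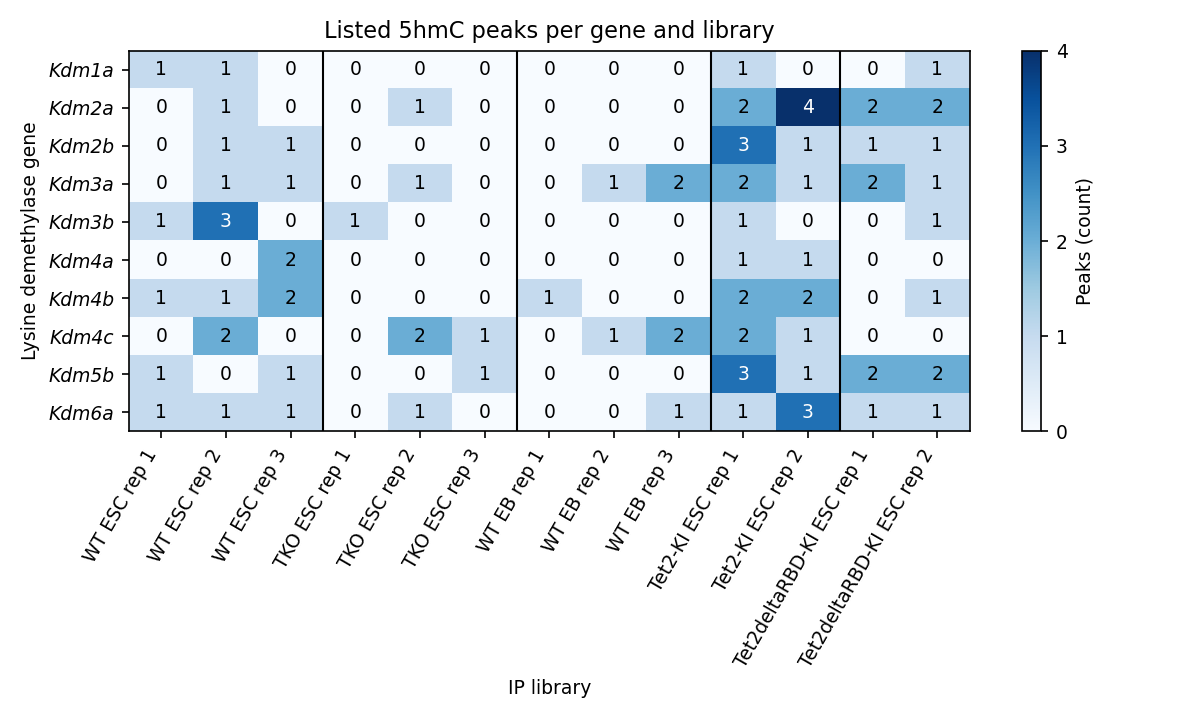
Number of listed peaks (colour scale and digits) in each of the 10 genes (rows) and 13 IP libraries (columns), with black lines between groups. Kdm3a and Kdm6a have peaks in 9 libraries each, and TKO ESC replicate 1 and WT EB replicate 1 each have 1 peak in the whole family.

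The genes of the H3K4 demethylases were Kdm1a and Kdm5b. Kdm1a (chr4:136106455-136158638, minus strand) had 4 peaks, with 1 each in WT ESC replicates 1 and 2, Tet2-KI ESC replicate 1 and Tet2deltaRBD-KI ESC replicate 2. The WT ESC peaks fell in the same intronic region, chr4:136112239-136112440, with fold enrichments over input of 8.55 and 5.99. Neither a TKO ESC nor a WT EB library had a peak in Kdm1a.

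Kdm5b (chr1:136456748-136529454, plus strand) had 11 peaks in 4 regions. Its first-intron region chr1:136457568-136457823 had a peak in 5 libraries, namely WT ESC replicate 3, where it was enriched 7.40-fold over input, and all 4 knock-in libraries. This was the only family region that was replicated in both Tet2-KI ESC and Tet2deltaRBD-KI ESC. A second intronic region, chr1:136470238-136470485, had peaks in WT ESC replicate 1 and TKO ESC replicate 3, with fold enrichments of 7.43 and 5.53, and in replicate 1 of both knock-in groups. The remaining 2 regions had 1 library each.

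Kdm2a and Kdm2b encode JmjC enzymes with a CxxC zinc finger that binds unmethylated CpG. Kdm2a (chr19:4316170-4398266, minus strand) had 12 peaks, of which 2 and 4 were in Tet2-KI ESC replicates 1 and 2, and 2 in each Tet2deltaRBD-KI ESC library. WT ESC replicate 2 and TKO ESC replicate 2 had 1 peak each, in separate 3′ UTR regions, with fold enrichments of 5.06 and 6.03. The knock-in peaks lay elsewhere, 9 of 10 of them in 4 neighbouring regions whose median summits were 347 to 1724 bp from the gene start. The intronic region chr19:4397393-4397638 had peaks in both Tet2-KI ESC libraries and Tet2deltaRBD-KI ESC replicate 2, and the 5′ UTR region chr19:4396808-4397049 in both Tet2deltaRBD-KI ESC libraries and Tet2-KI ESC replicate 2.

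Kdm2b (chr5:123320677-123465089, minus strand) had 8 peaks in 7 regions, all intronic and none within 2 kb of the start of the annotated span. The region chr5:123435707-123435915 had a peak in replicate 1 of both knock-in groups, and each of the others had 1 library. Of these, chr5:123438471-123438670 and chr5:123350010-123350209 lay 26 and 48 bp from an exon edge. Their windows held 68.0 and 75.5% G + C. WT ESC replicates 2 and 3 had 1 peak each, with fold enrichments of 5.20 and 4.43.

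Kdm3a (chr6:71538968-71582899, minus strand), an H3K9 demethylase gene, held the region with the most libraries among the 51 of the 10 genes. Region chr6:71565513-71565890, in an intron 17137 bp from the gene start, had a peak in 7 of the 13 libraries and in every group. The fold enrichment was 7.67 in WT ESC replicate 3, 11.0 in TKO ESC replicate 2, 6.42 in WT EB replicate 2 and 8.90 in WT EB replicate 3, with a mean of 8.50 ± 1.96 (SD, n = 4). The highest of the 4 values was from the only TKO ESC library with a peak there, and the differences between the values were not tested. The medians over all peaks of these 4 lists were 5.55, 7.28, 7.24 and 7.07 in the same order. Both Tet2-KI ESC libraries and Tet2deltaRBD-KI ESC replicate 1 also had it, as positions without a fold enrichment. The other 4 regions of Kdm3a had 1 or 2 libraries.

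Kdm3b (chr18:34936662-34999024, plus strand) had 7 peaks, of which 5 lay in coding sequence. Region chr18:34936720-34936939, 164 bp from the gene start, had peaks in replicate 1 of WT ESC and of TKO ESC, with fold enrichments of 2.74 and 9.73, and in Tet2deltaRBD-KI ESC replicate 2. The fold enrichment of the WT ESC peak was the lowest of all family peaks. WT ESC replicate 2 had 3 peaks in this gene and replicate 3 none.

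The Kdm4 genes encode demethylases of trimethylated H3K9 and H3K36. Kdm4a (chr4:117809562-117852648, minus strand) had 4 peaks in 2 regions. Its intronic region chr4:117841734-117841936 had a peak in both Tet2-KI ESC libraries and in no other, and its 3′ UTR region held 2 overlapping peaks of WT ESC replicate 3. Kdm4b (chr17:56465485-56542293, plus strand) had 10 peaks, and its intronic region chr17:56473263-56473465 likewise had a peak in both Tet2-KI ESC libraries alone. Its 5′ UTR region chr17:56465544-56465746 had a peak in WT ESC replicate 1, enriched 7.97-fold, and in Tet2deltaRBD-KI ESC replicate 2.

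The Kdm4b region around the second window, chr17:56497504-56497748, was shared by 4 libraries. Its fold enrichment was 7.31 and 9.17 in WT ESC replicates 2 and 3 and 5.57 in WT EB replicate 1, with a mean of 7.35 ± 1.80 (SD, n = 3), and Tet2-KI ESC replicate 1 also had it. With the Kdm1a region above, it was 1 of 2 regions with a peak in 2 of the 3 WT ESC libraries. The lone family peak of WT EB replicate 1 was this one.

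Kdm4c (chr4:73888401-74051764, plus strand), the longest of the 10 genes at 163.4 kb, had 11 peaks in 9 regions. Region chr4:74042502-74042726 had peaks in WT ESC replicate 2 and WT EB replicate 2, with fold enrichments of 4.40 and 9.60, and in Tet2-KI ESC replicate 1. Each of the other 8 regions had 1 library, and no Tet2deltaRBD-KI ESC library had a peak in this gene.

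Kdm6a (chrX:17739701-17857062, plus strand), the H3K27 demethylase gene, had 11 peaks in 9 libraries. Each WT ESC replicate had 1 peak, but in 3 different intronic regions. Region chrX:17835939-17836171 had a peak in WT ESC replicate 1, enriched 5.73-fold, and in both Tet2-KI ESC libraries. Region chrX:17828557-17828938 had 1 library of each group except the knock-ins (WT ESC replicate 3, TKO ESC replicate 2 and WT EB replicate 3), with fold enrichments of 4.38, 4.16 and 4.92 and a mean of 4.49 ± 0.393 (SD, n = 3). Region chrX:17740064-17740329, which covers the start codon window shown above, had peaks in both Tet2deltaRBD-KI ESC libraries and Tet2-KI ESC replicate 2.

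Recurrence in the family was then set beside that of all regions in coding genes. Of the 21 family regions with a WT ESC peak, 0 had a peak in every WT ESC library, which by an exact Clopper-Pearson interval at 95% allows a share of up to 16.1%, and 12.9% of all 8417 such regions in coding genes were replicated. The counts were 0 of 8 in TKO ESC (upper bound 36.9%) and 0 of 7 in WT EB (upper bound 41%), where the shares over coding genes were 6.01% and 2.76%. In Tet2-KI ESC 6 of 26 family regions were replicated, or 23.1% (95% interval 8.97 to 43.6%), beside 26.1% over coding genes. In Tet2deltaRBD-KI ESC the count was 3 of 15, or 20% (4.33 to 48.1%), beside 22.1%. Each of these intervals, which cover counting error only, contains the share over coding genes. A peak in 1 library only was found for 62.7% of the family regions (48.1 to 75.9%) and for 54.2% of all regions in coding genes.

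The loss of peaks in knockout cells and embryoid bodies could therefore be read only from regions that were not replicated. Of the 21 regions with a WT ESC peak, 15 had none in TKO ESC or WT EB (71.4%, interval 47.8 to 88.7%), beside 62.2% over coding genes. A WT ESC region was shared with TKO ESC in 4 genes (Kdm3a, Kdm3b, Kdm5b and Kdm6a) and with WT EB in 4 (Kdm3a, Kdm4b, Kdm4c and Kdm6a). Of the 6 regions replicated in Tet2-KI ESC, the 3 in Kdm4a, Kdm4b and Kdm6a had no Tet2deltaRBD-KI ESC peak (50.0%, interval 11.8 to 88.2%), beside 35.2% over coding genes. The 3 others, in Kdm2a, Kdm3a and Kdm5b, had one in 1 or both Tet2deltaRBD-KI ESC libraries.

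The number of family peaks per library was compared as a count and relative to the length of the list. WT ESC libraries held 5, 11 and 8 family peaks in replicates 1 to 3, TKO ESC 1, 5 and 2, and WT EB 1, 2 and 5. The means were 8.0 ± 3.0 in WT ESC and 2.67 ± 2.08 in both TKO ESC and WT EB (SD, n = 3 each). The lowest WT ESC library equalled the highest TKO ESC and WT EB libraries, and neither difference passed a two-sided exact permutation test (p = 0.2, adjusted p = 0.55 over 11 comparisons). The smallest p that 3 libraries against 3 can give is 0.1.

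The WT ESC lists were also the longest of the 3 groups, with a mean of 6002 peaks beside 2850 in TKO ESC and 1954 in WT EB. Per 1000 listed peaks, the family had 1.14, 1.55 and 1.23 peaks in WT ESC, 1.04, 1.16 and 0.613 in TKO ESC, and 2.01, 1.09 and 1.42 in WT EB. On this scale WT ESC and TKO ESC averaged 1.31 ± 0.214 and 0.936 ± 0.286 (exact permutation p = 0.2, adjusted p = 0.55), and WT EB 1.51 ± 0.464 (exact permutation p = 0.7, adjusted p = 0.962). The groups overlapped in both comparisons. Without TKO ESC replicate 3, the difference between WT ESC and TKO ESC fell from 0.369 to 0.208 peaks per 1000. With every list shortened to its 498 highest peaks, the length of the shortest list, WT ESC had on average 0.33 fewer family peaks than TKO ESC and 0.67 fewer than WT EB.

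Both Tet2-KI ESC libraries, with 18 and 14 family peaks, lay above the Tet2deltaRBD-KI ESC libraries, with 8 and 10. The means were 16.0 ± 2.83 and 9.0 ± 1.41 (SD, n = 2 each), and the exact permutation p of 0.33 is the smallest that 2 libraries against 2 can give (adjusted p = 0.733). Per 1000 listed peaks the order was not kept, with 1.73 and 2.42 in Tet2-KI ESC and 1.72 and 3.01 in Tet2deltaRBD-KI ESC (exact permutation p = 1.0, adjusted p = 1.0). Without Tet2deltaRBD-KI ESC replicate 2, the difference per 1000 peaks changed sign, from -0.292 to 0.353.

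**Figure D2:**
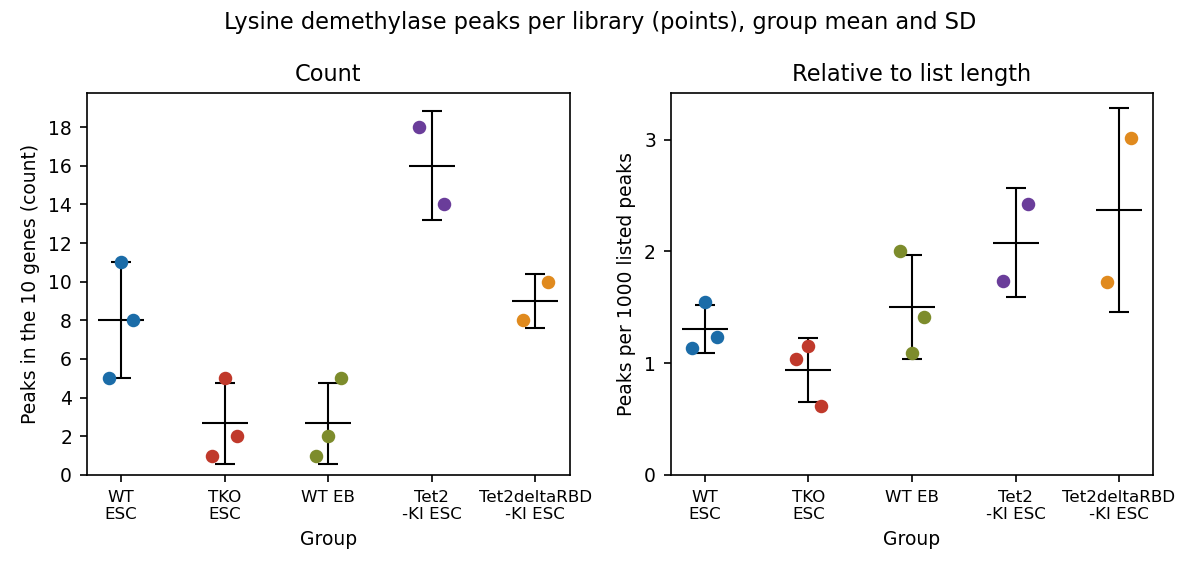
Family peaks per IP library as a count (left) and per 1000 listed peaks (right), with points for libraries, horizontal bars for group means and whiskers for the SD. WT ESC libraries hold 5 to 11 peaks and the other groups of 3 libraries 1 to 5, so these ranges meet at 5. The ranges per 1000 peaks overlap.

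The strength of the peaks could be compared in the 9 libraries whose lists give a fold enrichment. The 40 family peaks there had a median fold enrichment of 5.83, from 2.74 to 11.0, and 17 of them lay at or above the median of their own list. The median per library was 7.43, 5.14 and 6.45 in WT ESC, 9.73, 6.03 and 5.87 in TKO ESC, and 5.57, 8.01 and 5.27 in WT EB. The groups overlapped, with a log2 difference of -0.16 between WT ESC and TKO ESC (exact permutation p = 0.7, adjusted p = 0.962) and of 0.02 between WT ESC and WT EB (exact permutation p = 1.0, adjusted p = 1.0). These medians rest on 1 to 11 peaks per library, and the TKO ESC value of replicate 1 is that of the single Kdm3b peak.

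**Figure D3:**
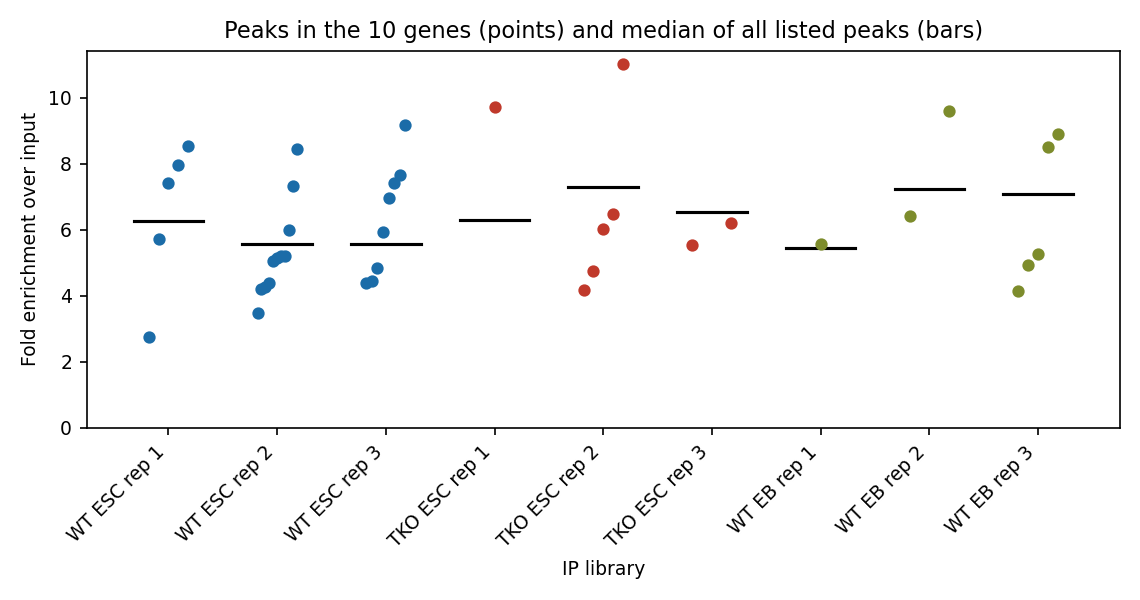
Fold enrichment over input of each family peak (points) in the 9 libraries that give it, and the median over all peaks of the same list (black bars). Family peaks run from 2.74 to 11.0 and lie on both sides of the list medians.

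Of the 90 family peaks, 65 lay in introns (72.2%), 12 in coding sequence, 8 in 5′ UTRs and 5 in 3′ UTRs. Of all 46415 listed peaks in coding genes, 67.1% lay in an intron of each coding gene that held the summit. The intronic share was 60.0, 81.8 and 75.0% in WT ESC, 0, 80.0 and 100% in TKO ESC, and 100% in each WT EB library. WT ESC lay below WT EB in all 3 libraries (72.3 ± 11.2% and 100 ± 0%, SD, n = 3 each), at the smallest p the exact permutation test allows (p = 0.1, adjusted p = 0.55). The WT EB values rest on 1, 2 and 5 peaks, and with only the peaks at or above the median of their own list the exact permutation p was 0.4. Over all coding genes the order was the opposite, with an intronic share of 72.5 ± 5.68% for WT ESC libraries and 54.4 ± 0.280% for WT EB libraries (SD, n = 3 each). TKO ESC averaged 60.0 ± 52.9% (exact permutation p = 0.9, adjusted p = 1.0), where the value of 0% is that of a library with 1 peak. The knock-in groups had 77.8 and 64.3% in Tet2-KI ESC and 75.0 and 40% in Tet2deltaRBD-KI ESC (exact permutation p = 0.667, adjusted p = 0.962). The 35 intronic regions lay a median of 1262 bp from the nearest exon edge, and 7 of them within 200 bp.

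A subset of the peaks was grouped at the gene starts, a pattern that was looked at after the values were seen. The 12 regions within 2 kb of the annotated start lay in Kdm1a, Kdm2a, Kdm3a, Kdm3b, Kdm4b, Kdm5b and Kdm6a. All 12 had a knock-in peak, as had 33 of the 51 family regions as a whole. The matching share over the start regions of all coding genes was not computed, so this count is a description. Summed over the libraries of a group, 3 of 24 WT ESC peaks, 1 of 8 TKO ESC peaks, 0 of 8 WT EB peaks, 9 of 32 Tet2-KI ESC peaks and 13 of 18 Tet2deltaRBD-KI ESC peaks lay there. These sums count a region once for every library that lists it and were not tested. For peaks in all coding genes, the share per library averaged 13.4 ± 4.41% for WT ESC, 11.5 ± 9.05% for TKO ESC and 11.2 ± 7.96% for WT EB (SD, n = 3 libraries per group). The averages of the knock-in groups were 13.9 ± 1.33% for Tet2-KI ESC and 34.0 ± 19.3% for Tet2deltaRBD-KI ESC (SD, n = 2 libraries per group).

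The libraries within the groups were unlike in this measure. In Tet2-KI ESC the counts were 2 of 18 and 7 of 14, and in Tet2deltaRBD-KI ESC 4 of 8 and 9 of 10. Tet2deltaRBD-KI ESC replicate 2 stood apart over all coding genes too, with 47.6% of its peaks within 2 kb of a gene start, beside 20.3% in replicate 1 of its group, 12.9 and 14.8% in Tet2-KI ESC and 4.89 to 21.8% over the other 12 libraries. Among those, the share was 18.3% in WT ESC replicate 1, 21.8% in TKO ESC replicate 1 and 20.2% in WT EB replicate 1, and 4.89 to 12.2% in replicates 2 and 3 of the same groups. Outside the knock-in groups, the start peaks of Kdm3b and Kdm4b were from replicate 1 libraries and that of Kdm5b from WT ESC replicate 3. Without Tet2deltaRBD-KI ESC replicate 2, the count of its group was 4 of 8 peaks. The part of the libraries in the pattern was not tested.

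**Figure D4:**
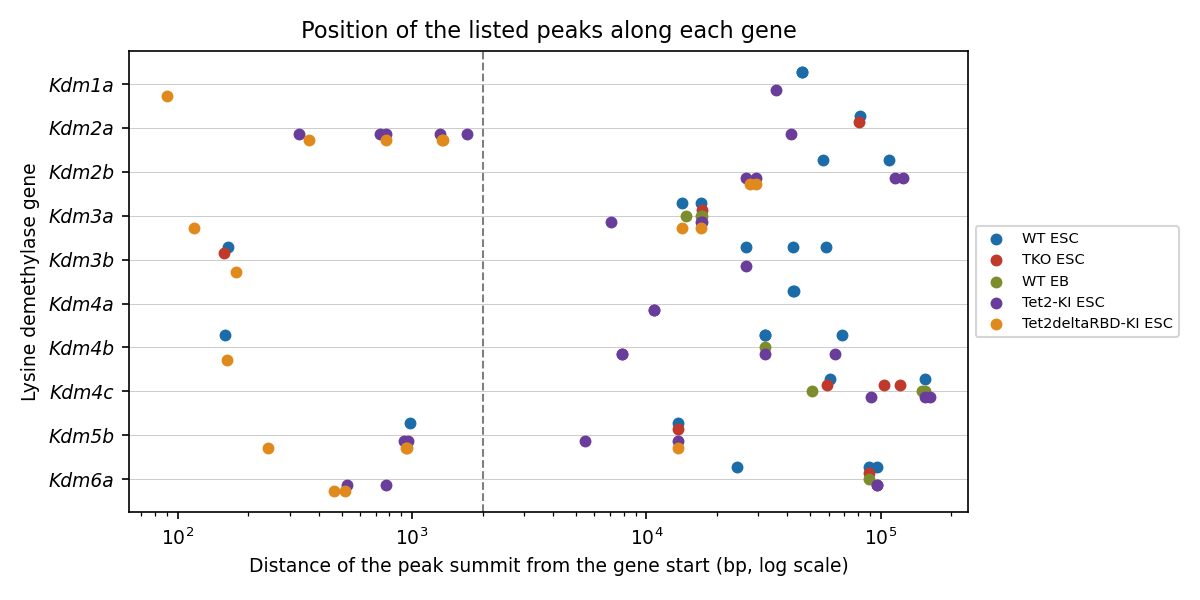
Distance of each family peak summit from the gene start (bp, log scale) in the 10 genes, coloured by group, with a dashed line at 2 kb. Left of the line lie 9 of 10 knock-in peaks of Kdm2a, 5 of 8 of Kdm5b and 4 of 6 of Kdm6a, and the peaks of Kdm2b, Kdm4a and Kdm4c all lie right of it.

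The windows near the gene start differed in base composition from those further in. The 12 start regions had a median G + C content of 74.2%, from 62.5 to 79.0%, and a median ratio of observed to expected CpG of 0.971. The 39 other regions had medians of 46.0% and 0.222. The medians over all regions that lie in exactly 1 coding gene were close to these, at 70.0% and 0.842 near the start and 45.5% and 0.199 further in. In the windows shown above, CpG occurred 29 times in the Kdm2a window, 26 times in that of Kdm6a and 17 times in that of Kdm5b, beside 2 in Kdm3a, 4 in Kdm4a and 0 in the first Kdm4b window. The Kdm6a window also holds a run of GCC triplets, and that of Kdm2a a run of GT dinucleotides.

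On the gene strand the windows held more purines than pyrimidines, with a median A + G content of 59.0% in the family and 57.5% over the 18198 regions in 1 coding gene. A run of at least 10 purines was present in 35 of the 51 windows (68.6%), beside 53.5% of all regions, and a run of at least 10 pyrimidines (C or T) in 3 windows (5.88%), beside 19.1%. Runs were searched on the gene strand alone. The shares are descriptions of windows of the same length and were not tested. The second Kdm4b window had an A + G content of 93.5% and an unbroken purine run of 136 bases, the longest of the 51. A tandem repeat of at least 18 bases with a unit of 1 to 4 bases (20 for units of 4) was found in 7 windows (13.7%), beside 8.50% of all regions.

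**Figure D5:**
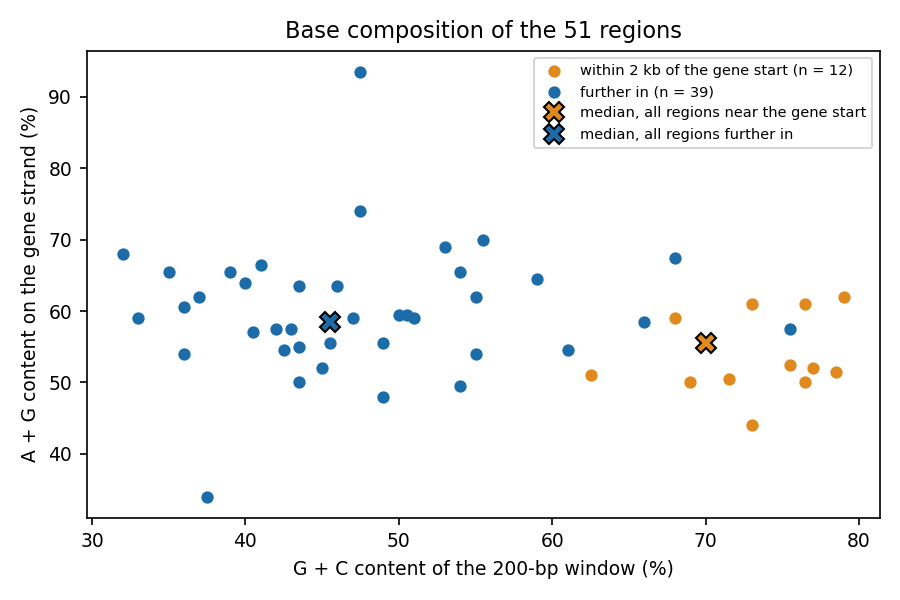
G + C content against A + G content on the gene strand for the 200-bp windows of the 51 family regions, with crosses for the medians of all regions in 1 coding gene. The 12 windows within 2 kb of a gene start lie at 62.5% G + C or more, and the point at 93.5% A + G is the second Kdm4b window.

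The family was last set beside other genes of the same pathway, in lists that were chosen with results of these data known. The 10 genes had 10.5 peaks per 100 kb of span. Other demethylase and JmjC genes (21 of 23 matched to the annotation) had 12, genes of demethylase complexes (23) 10.9, histone lysine methyltransferase genes (35) 7.94, and all coding genes 4.71. Kmt2c and Kmt2d are in both the complex and the methyltransferase list. A peak was listed in 14, 19 and 27 genes of the 3 other lists and in 57.0% of the 4267 coding genes whose span lies within the range of the 10. Since the 10 genes were chosen with these peaks known, and relatives without a peak such as Kdm4d are in the comparison list, neither their density nor the presence of a peak in each of them is a result about the family.

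A region replicated in WT ESC was found in 0 of the 10 genes, in 2 other demethylase and JmjC genes, in 1 complex gene and in 4 methyltransferase genes, beside 7.08% of the coding genes of like span. Kdm5a, a relative of Kdm5b that also acts on H3K4, had a coding sequence region, chr6:120381898-120382297, with peaks in 11 libraries. Its fold enrichment was 15.3 ± 9.63 in WT ESC (SD, n = 3) and 17.5 ± 4.96 in the 2 TKO ESC libraries with a peak. Jmjd1c, a relative of Kdm3a and Kdm3b, had a coding sequence region, chr10:66689409-66689653, with peaks in 9 libraries, more than any region of the 10 genes, but not in every WT ESC library. Jarid2, a JmjC protein of Polycomb repressive complex 2 without demethylase activity, had 3 regions replicated in WT ESC. The intronic regions chr13:44828743-44828969 and chr13:44864166-44864411 had no TKO ESC peak, and the coding sequence region chr13:44997956-44998255 was enriched 6.59 ± 1.36-fold in WT ESC (SD, n = 3) and 4.34-fold in 1 TKO ESC library. The complex gene was Hdac2, a deacetylase that works with Kdm1a, whose coding sequence region chr10:36718180-36718425 was enriched 8.19 ± 3.16-fold in WT ESC (SD, n = 3) and 19.8 ± 3.18 in 2 TKO ESC libraries. The methyltransferase genes were Suv39h1, Whsc1l1, Smyd1 and Smyd3. Of the 12 regions replicated in WT ESC over these lists, 5 had no TKO ESC peak, in Jarid2, Suv39h1 and Smyd3, beside 26.4% of the 1086 regions replicated in WT ESC over coding genes. With 12 regions in lists chosen with results known, this is a description. The TKO ESC fold enrichments given for these genes come only from the libraries that list the peak and were not tested against WT ESC, and the median over all peaks of a list was 5.55 to 6.25 in WT ESC and 6.31 to 7.28 in TKO ESC.

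A region replicated in Tet2-KI ESC was found in 6 of the 10 genes, beside 4 of 21 other demethylase and JmjC genes, 6 of 23 complex genes, 10 of 35 methyltransferase genes and 16.5% of the coding genes of like span. Since the 10 genes were chosen with their peaks known, this count is a description, and per region the replicated share was 23.1% in the family and 26.1% over coding genes, as given above. The levels of the transcripts were not measured in these lists, so the density of peaks cannot be told apart from the abundance of the RNA.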

How the data were processed

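RNA 5hmC was measured by hMeRIP-seq in 13 IP libraries in 5 groups, taken from the sample titles. The authors removed rRNA and tRNA reads, trimmed the reads with Trimmomatic, and aligned them to mm9 with STAR and RefSeq transcripts. MACS2 then called the peaks of every IP library over the matching input (q-value threshold 0.05). The deposited lists give intervals of 200 bp around summits. For 9 libraries, they also give the authors' fold enrichment over input, a ratio, and the 4 knock-in lists hold positions only. Depth is unknown without reads, and a region without a peak is one where no peak passed the threshold. The lists hold no transcript levels, so neither the knockout nor the identity of the cells was checked. Strand is not given, so a peak was assigned by gene span.

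Overlapping intervals (at least 1 bp) of the 13 lists were merged in Python 3.11.15 (scipy 1.17.1, numpy 2.4.6, pandas 2.3.3, matplotlib 3.10.9). Replicated means a peak in every library of a group. The transcript part was taken from coding transcripts in the order coding sequence, 3′ UTR, 5′ UTR, intron. No family peak had its summit in another annotated gene. The gene start is the 5′ end of the annotated span. Tests were two-sided exact permutation tests of group means, adjusted by Benjamini-Hochberg over 11 comparisons, and shares carry exact Clopper-Pearson intervals. The study calls its replicates biological or independent experiments, and p-values measure the spread between these libraries. Descriptions beginning 1608, 1610 or 1703 were treated as batches. Regions described one by one were those in every replicate of a group or in at least 5 libraries; others were named after their values were seen. The members and gene lists were chosen with earlier results of these data known. The code was tested on simulated lists with planted regions. Over 78 pairs of libraries, at most 1.97% of intervals were identical.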

Additional observations from a re-analysis of the deposited data

How the results depend on the processing

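No comparison of libraries could pass 0.05 in these designs. The direction of several differences changed with the processing, and the cause was not tested. With lists shortened to their 498 highest peaks, the difference in family peaks per library became -0.33 for WT ESC minus TKO ESC and -0.667 for WT ESC minus WT EB. In the 1703 libraries alone, WT ESC minus WT EB was 0.135 family peaks per 1000 and -0.17 in log2 fold enrichment. WT ESC minus TKO ESC was -11.6 percentage points in the intronic share there. In these libraries 1 region was replicated in WT ESC, the Kdm4b region chr17:56497504-56497748, without a TKO ESC or WT EB peak. The WT EB peak of this region is in replicate 1, a 1610 library that this setting leaves out. When 2 of 3 libraries sufficed, 2 regions were replicated in WT ESC, 2 of them without a TKO ESC peak and 1 without a WT EB peak.

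Leaving out 1 library at a time gave 0 to 1 regions replicated in WT ESC, 0 to 1 without a TKO ESC peak and 0 to 1 without a WT EB peak. It gave 14 to 18 regions in Tet2-KI ESC, where 1 library was then left, and 4 to 13 without a Tet2deltaRBD-KI ESC peak. For WT ESC minus TKO ESC, the log2 fold enrichment ran from -0.289 to 0.0758 and the intronic share from -17.7 to 32.3 points, positive values of the former and negative values of the latter arising without TKO ESC replicate 1. For WT ESC minus WT EB, peaks per 1000 ran from -0.407 to 0.0511 and log2 fold enrichment from -0.10 to 0.21. For Tet2-KI ESC minus Tet2deltaRBD-KI ESC, peaks per 1000 ran from -0.936 to 0.353 and the intronic share from -3.97 to 31.0 points. Without Tet2deltaRBD-KI ESC replicate 2, 4 of its group's peaks lay within 2 kb of a gene start.

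Same-numbered libraries deviated together with correlations of 0.00307 to 0.165, not over 0.1 in every pair and not each highest with its own number. They were therefore not treated as pairs, although WT ESC and TKO ESC replicate 1 share the 1608 batch and had the highest of these correlations, 0.165. With the replicate number as a block the difference of 5.33 peaks between WT ESC and TKO ESC had an exact permutation p of 0.25, and all other differences had 0.25 or more. The smallest p that this blocked test can give is 0.25, so no call could change. The overlap of 100 bp and separate merging of the 9 and 4 lists were not run on differences between groups. Both left the counts of replicated regions in WT ESC and in Tet2-KI ESC unchanged. Merging within libraries was run on family peaks as a count and relative to the length of the list, and changed no direction there.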
